A study of Mus musculus with 24 samples.

Results

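Nova1, Nova2, Rbfox1, Rbfox2 and Rbfox3 encode the members of 2 families of RNA-binding splicing regulators. They were taken by gene symbol from an expression table of 22667 genes, in which all 5 were present, and their own exons were taken by gene from a splicing table, which held 30 of them among 54141 exons. Poly(A)+ RNA had been sequenced from mouse cells at 4 stages of neural differentiation in culture. WT cells (genotype wt/wt) were compared with slow/slow cells, in which both Polr2a alleles, encoding the largest subunit of RNA polymerase II, carry an arginine-to-histidine substitution studied as a cause of slow elongation. There were 3 replicates in each of 8 groups, 24 samples in all, and per the study's methods the replicates were independent differentiation experiments.

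Per the study's methods, the slow/slow line was made in E14 embryonic stem cells (ESCs) by gene targeting of first one and then the other Polr2a allele, so other differences between the lines cannot be told apart from the substitution. ESCs were kept in 2i medium, a serum-free medium with inhibitors that hold cells in the pluripotent state. Neural progenitor cells (NPCs) were collected at day 7 in N2B27 medium, after slow/slow cells had been plated more densely than WT cells. PSA-NCAM+ cells, which carry polysialylated neural cell adhesion molecule, were purified with beads at day 10. Neurons were replated at day 7 and grown for 14 more days with ascorbic acid and cAMP.

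Nova proteins bind RNA through KH domains, at short elements in which CA stands between pyrimidines, and they regulate exons of synaptic transcripts in neurons. Rbfox proteins share a single RNA recognition motif that reads UGCAUG. In both families a protein bound downstream of an exon commonly promotes its inclusion, whereas one bound within or upstream of it commonly represses it. Rbfox3 is the nuclear antigen NeuN, a standard marker of mature neurons, while Rbfox2 is also made outside the nervous system. Members of both families are known to act on their own transcripts. Nova1 carries an exon of 72 bases that Nova protein represses, Rbfox genes carry an exon of 93 bases inside the RNA recognition motif whose loss gives a protein that binds RNA poorly, and exons of 40 and 43 bases replace each other near the 3' end of the coding part of Rbfox1 and Rbfox2. A 53-base exon of Rbfox1 separates nuclear from cytoplasmic forms of the protein.

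Of the 30 exons, 23 could be matched to a single exon of the same gene in the GENCODE annotation of GRCm38. The exons printed next are those whose inclusion differed between genotypes, and the 40-base and 43-base partners that exclude each other. Each lies inside the coding sequence in every annotated coding transcript that contains it, and each is written 5' to 3' on the strand of its gene. Capitals mark the Nova element on the sense strand, searched as TCAT and the other 3 forms with C in place of either T or of both, overlaps counted. The Rbfox element, in DNA letters TGCATG, was searched in the same exons and occurs in none of them.
Nova1 exon of 72 bases, chr12:46713498-46713569, minus strand: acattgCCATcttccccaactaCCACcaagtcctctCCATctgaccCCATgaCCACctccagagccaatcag
Rbfox1 exon of 81 bases, chr16:7330362-7330442, plus strand: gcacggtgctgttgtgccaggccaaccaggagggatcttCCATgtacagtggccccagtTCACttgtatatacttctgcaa
Rbfox2 exon of 51 bases, chr15:77231387-77231437, minus strand: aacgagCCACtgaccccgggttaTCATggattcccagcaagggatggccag
Rbfox2 exon of 40 bases, chr15:77094451-77094490, minus strand: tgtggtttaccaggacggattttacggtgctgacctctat
Rbfox1 exon of 40 bases, chr16:7363865-7363904, plus strand: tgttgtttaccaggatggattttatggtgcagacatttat
Rbfox2 exon of 43 bases, chr15:77091812-77091854, minus strand: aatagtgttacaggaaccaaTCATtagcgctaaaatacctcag
Rbfox1 exon of 43 bases, chr16:7369801-7369843, plus strand: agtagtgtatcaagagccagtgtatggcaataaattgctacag

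The Nova1 exon holds 5 of the Nova elements. Among all 1428 internal exons of 72 bases in the annotation, 15 (1.05%) hold at least as many. The 2 elements of the 81-base Rbfox1 exon are matched or exceeded in 37.7% of 1617 exons of its length, and the 2 of the 51-base Rbfox2 exon in 18.1% of 706. The 40-base exons of Rbfox1 and Rbfox2 are identical at 34 of 40 positions (85%), and the 43-base exons at 27 of 43 (62.8%). The 93-base exons are 92.5% identical between Rbfox1 and Rbfox2 and 74.2% identical between Rbfox3 and each of the other two, and they contain neither element. A match of letters is a description of the exon and does not make it a binding site.

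Total counts per sample ranged from 32974432 to 104466886. Expression is given as TMM-scaled CPM, read counts relative to the scaled size of the library, and genes were called changed at a false discovery rate (FDR) under 0.05 in edgeR's quasi-likelihood test, fitted over all 24 samples and 16627 genes. The stage labels were checked on marker genes. The summed level of 5 pluripotency markers was 5013 to 5734 CPM in ESCs and 75.5 to 127 CPM in neurons, and that of 7 neuronal markers was 4210 to 4562 CPM in WT neurons and 3324 to 3545 CPM in slow/slow neurons, against at most 555 CPM earlier. PSA-NCAM+ cells of both genotypes still held 678 to 1779 CPM of the pluripotency markers and at most 61.9 CPM of the genes for NCAM and its polysialyltransferases, which reached 395 to 745 CPM in neurons. Replicate 1 of slow/slow PSA-NCAM+ cells stood apart from its group, with a mean correlation of 0.966 to the other libraries of the group. Other PSA-NCAM+ libraries had 0.981 to 0.990. Replicate 1 was also the lowest of the WT group, at 0.982 against 0.990 for each of the others. The genotype changes of the 5 genes and of the Rbfox2 exons at that stage, and the counts over gene lists, are given with and without slow/slow replicate 1. The values without it keep WT replicate 1, although same-numbered libraries of this stage deviated together, so they leave out only one side of a pair. In bulk RNA, a lower level in fewer cells of a type and less RNA in each cell cannot be told apart.

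Each of the 5 genes was highest in neurons. From ESCs to neurons all 5 were called higher in WT cells and in slow/slow cells, contrasts in which 43.4% and 44% of all genes were called higher. In WT cells the log2 change from ESCs to neurons was 5.31 ± 0.22 (SE) for Nova1, 3.92 ± 0.23 for Nova2 and 1.34 ± 0.09 for Rbfox2. The corresponding values for Rbfox1 and Rbfox3, which were close to absent in ESCs, were 8.98 ± 0.49 and 8.48 ± 0.37. In slow/slow cells they were 5.02 for Nova1, 3.92 for Nova2, 1.32 for Rbfox2 and 6.75 for Rbfox3. Rbfox1 had at most 2 counts in any slow/slow ESC library and was at least 664-fold higher in slow/slow neurons, computed against a floor of 3 counts in each library, which covers counting error only.

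Before neurons the changes were smaller and differed between the genes. In WT cells Nova2 fell from ESCs to NPCs by 0.73 on the log2 scale (FDR 0.00551) and stood 1.01 below ESCs in PSA-NCAM+ cells (FDR 0.000354). Rbfox3 rose from ESCs to NPCs by 2.55 (FDR 1.1e-05) but was 1.15 lower again in PSA-NCAM+ cells (FDR 0.00742). Nova1, Rbfox1 and Rbfox2 were not called between any pair of WT stages before neurons. Slow/slow cells took another course. From ESCs to PSA-NCAM+ cells all 5 genes were called higher, in a contrast where 39.2% of all genes were called higher. The log2 changes were 1.18 for Nova1, 0.55 for Nova2, 0.25 for Rbfox2 and 1.90 for Rbfox3. Rbfox1 was at least 9.06-fold higher, on a mean of 0.184, 0.661 and 1.17 CPM in slow/slow PSA-NCAM+ cells. Only for Nova2 did the 2 stages overlap. Slow/slow PSA-NCAM+ replicate 1 held 11.8 CPM of Nova2, below every slow/slow ESC library, whereas replicates 2 and 3 held 25.5 and 30.7 CPM. Over all 6 pairs of stages, 20 of 30 combinations of gene and pair were called in WT cells and 25 of 30 in slow/slow cells. Across all genes, either direction, the shares called in WT cells were 65.6% (NPCs against ESCs), 71.2% (PSA-NCAM+ cells against ESCs), 82.8% (neurons against ESCs), 41.3% (PSA-NCAM+ cells against NPCs), 80.2% (neurons against NPCs) and 79.2% (neurons against PSA-NCAM+ cells). In the same order they were 62.3%, 73.4%, 82.5%, 42.3%, 75% and 70.7% in slow/slow cells.

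**Figure D1:**
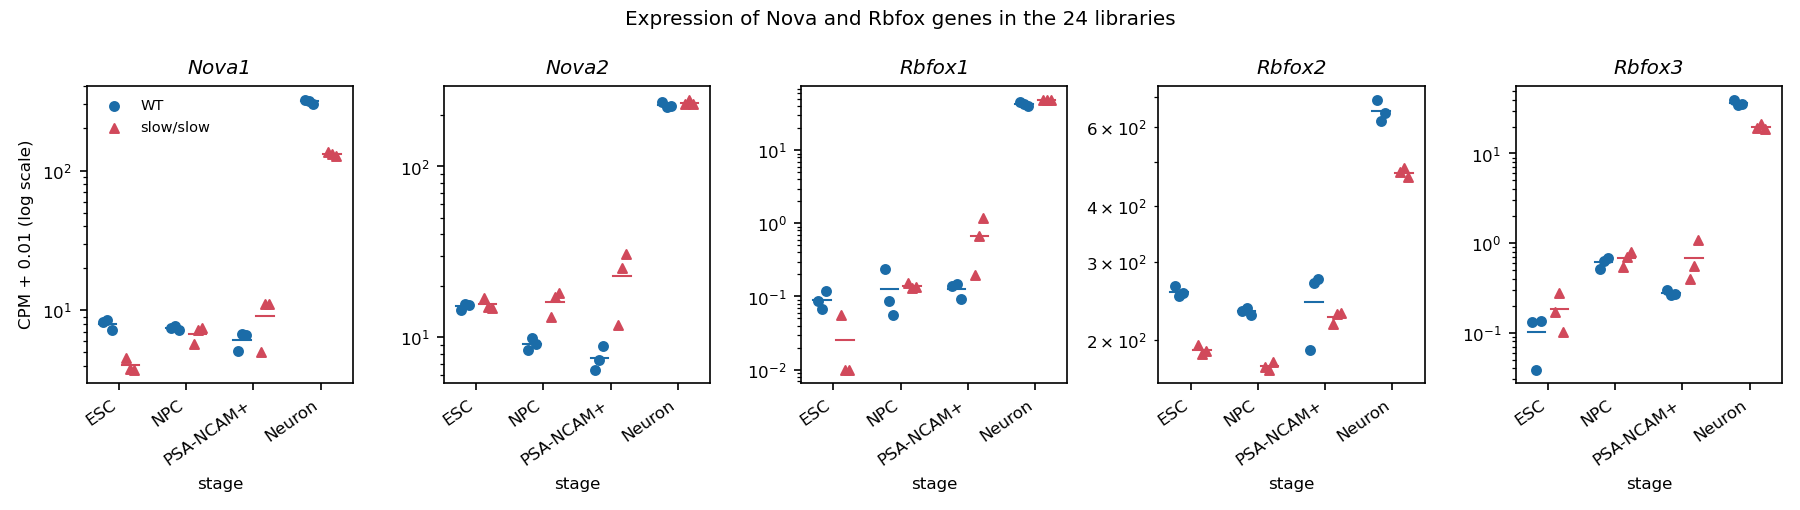
TMM-scaled CPM of the 5 genes in every library, on a log10 axis with 0.01 CPM added so that zeros can be drawn. Circles are WT and triangles slow/slow libraries, and bars mark group means. Nova1 and Rbfox3 separate by genotype in neurons, where Nova1 was 313 and 131 CPM and Rbfox3 36.6 and 19.7 CPM in WT and slow/slow cells.

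Levels of different genes were compared only per length of transcript, with the authors' deposited mean RPKM, which has no spread. Rbfox2 made up nearly all Rbfox RNA before neurons, at least 98.8% of the summed RPKM of the 3 genes in every group. In WT neurons the authors' mean RPKM was 93.2 for Rbfox2, 10.6 for Rbfox1 and 11.8 for Rbfox3, so that Rbfox2 was still 80.6% of the sum. In slow/slow neurons the same means were 74.5, 13.4 and 6.96, and the share of Rbfox2 was 78.6%. For the Nova genes the order differed between genotypes. Nova1 was 63.2% of the Nova sum in WT neurons, at 44.9 against 26.1 RPKM for Nova2, and 41.1% in slow/slow neurons, at 20.7 against 29.7 RPKM.

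Between genotypes, 2 of the 5 genes were called in ESCs, 2 in NPCs, 4 in the PSA-NCAM+ stage and 3 in neurons. Of all genes tested, 40.4% were called in either direction for ESCs, 56.7% both for NPCs and for PSA-NCAM+ cells, and 51.9% for neurons, so a call as such does not set these genes apart. Directions differed by gene and stage. Nova1 and Rbfox2 were called lower in slow/slow ESCs (21.9% of all genes were), and Nova1, Rbfox2 and Rbfox3 in slow/slow neurons (28.4% of all genes). In NPCs Rbfox2 was called lower (27.4% of all genes) and Nova2 higher (29.3%). The 4 calls in PSA-NCAM+ cells, Nova1, Nova2, Rbfox1 and Rbfox3, were all towards higher levels, as for 28.6% of all genes. Those of Nova1 and Rbfox3 were lost when the libraries of that stage were fitted alone.

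Nova1 is at chr12:46694517-46818929 on the minus strand (GRCm38). In neurons its level was 322, 316 and 301 CPM in the 3 WT samples and 136, 132 and 127 CPM in the 3 slow/slow samples. Every slow/slow neuron library thus lay far below every WT one, and the fitted level in slow/slow neurons was 0.420 of that in WT neurons (log2 change -1.25 ± 0.18, FDR 1.15e-05). In ESCs, where Nova1 is expressed weakly, the level was 8.16, 8.43 and 7.15 CPM in WT and 4.57, 3.78 and 3.75 CPM in slow/slow samples, again without overlap (-0.97 ± 0.20, FDR 0.000798). NPCs showed no detectable difference, with 7.47, 7.73 and 7.20 CPM in WT and 5.68, 7.16 and 7.47 CPM in slow/slow samples (-0.15, FDR 0.536). In PSA-NCAM+ cells the level was 5.06, 6.71 and 6.68 CPM in WT and 5.04, 11 and 11.1 CPM in slow/slow samples. The genotypes overlapped there, because replicate 1 of slow/slow cells was as low as the lowest WT sample. The call at that stage (0.58 ± 0.19, FDR 0.0153) was lost when WT replicate 1 (0.45), slow/slow replicate 2 (0.44) or slow/slow replicate 3 (0.45) was left out, and without slow/slow replicate 1 the log2 change was 0.88. It was also lost when the PSA-NCAM+ libraries were fitted alone (0.53, FDR 0.285).

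Nova2, at chr7:18925888-18965319 on the plus strand, did not follow Nova1. In neurons it was 239, 222 and 225 CPM in WT and 232, 247 and 232 CPM in slow/slow samples, overlapping ranges with a log2 change of 0.05 ± 0.20 (FDR 0.855). In ESCs it was 14.3, 15.7 and 15.4 CPM in WT and 17, 14.9 and 14.9 CPM in slow/slow samples (0.04, FDR 0.901). The gene rose in the intermediate stages instead. NPCs held 8.34, 9.81 and 9.16 CPM in WT and 13, 17.1 and 18.2 CPM in slow/slow samples, 1.76-fold more (0.82 ± 0.22, FDR 0.00313). PSA-NCAM+ cells held 6.44, 7.35 and 8.84 CPM in WT and 11.8, 25.5 and 30.7 CPM in slow/slow samples, 3.02-fold more (1.60 ± 0.22, FDR 3.86e-06), and 1.92 on the log2 scale without slow/slow replicate 1. No slow/slow sample of either stage fell within the WT range.

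The ratio of Nova1 to Nova2 counts within a library separated the genotypes at all 4 stages. In ESCs it was 0.569, 0.536 and 0.464 in WT and 0.269, 0.253 and 0.252 in slow/slow samples. It was 1.35, 1.42 and 1.34 in WT neurons and 0.583, 0.535 and 0.548 in slow/slow neurons. Nova1 counts thus exceeded those of Nova2 in WT neurons and in no other group, but counts of different genes also depend on transcript length. By the authors' mean RPKM, Nova1 was 50.7% of the Nova sum in WT NPCs and in WT PSA-NCAM+ cells. In NPCs the ratio was 0.895, 0.788 and 0.786 in WT and 0.436, 0.420 and 0.409 in slow/slow samples. In PSA-NCAM+ cells it was 0.785, 0.913 and 0.755 in WT and 0.426, 0.433 and 0.361 in slow/slow samples. A ratio of counts within a library does not depend on how libraries were scaled, and in PSA-NCAM+ cells replicate 1 of slow/slow cells lay with its group on this measure.

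**Figure D2:**
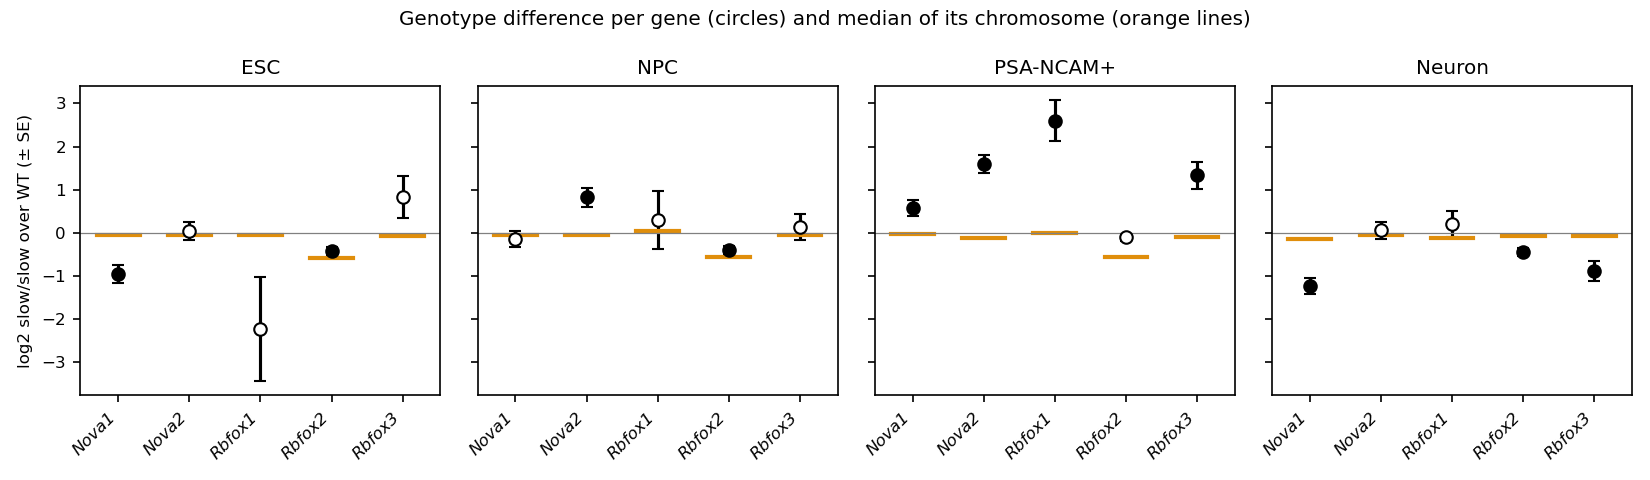
Log2 change of slow/slow over WT cells for the 5 genes at each stage, with SE from edgeR's quasi-likelihood test (3 libraries a group). Filled symbols passed an FDR of 0.05, and the orange line is the median of all tested genes on the same chromosome. Nova1 changed by -0.97 in ESCs and -1.25 in neurons, and Rbfox2 lay between -0.41 and -0.46 in ESCs, NPCs and neurons.

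Rbfox2, at chr15:77078990-77307004 on the minus strand, was the Rbfox gene expressed at every stage. In ESCs it was 265, 251 and 255 CPM in WT and 195, 186 and 189 CPM in slow/slow samples (-0.44 ± 0.09, FDR 0.000775). In NPCs it was 233, 237 and 227 CPM in WT and 174, 172 and 179 CPM in slow/slow samples (-0.41 ± 0.09, FDR 0.000869). In neurons it was 690, 619 and 643 CPM in WT and 476, 485 and 462 CPM in slow/slow samples (-0.46 ± 0.09, FDR 0.000321). The genotypes did not overlap at these 3 stages. In PSA-NCAM+ cells they did, with 190, 268 and 274 CPM in WT and 217, 229 and 231 CPM in slow/slow samples (-0.11 ± 0.09, FDR 0.302), although the gene was called lower when WT replicate 1 was left out (-0.26, FDR 0.000768). Without slow/slow replicate 1 the log2 change was -0.06 (FDR 0.576).

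The chromosome of Rbfox2 has to be read beside these values. The median log2 change over the 639 tested genes of chromosome 15 was -0.60, -0.57 and -0.56 in the 3 stages up to PSA-NCAM+ cells and -0.08 in neurons, against medians over all genes of -0.02, 0.01, -0.01 and -0.06. Rbfox2 was therefore no lower than the typical gene of its chromosome in the 3 early stages. In neurons it was lower by 0.46 where the chromosome as a whole was lower by 0.08. What part the chromosome had in the change of Rbfox2 was not tested.

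Rbfox1, at chr16:5885355-7411526 on the plus strand, is the longest of the 5 genes and spans 1526 kb. Its expression was close to the counting limit until neurons, with at most 11 counts in any library of ESCs, NPCs and WT PSA-NCAM+ cells. Slow/slow PSA-NCAM+ cells were an exception, with 9, 62 and 107 counts against 11, 7 and 5 in WT cells. In CPM these were 0.184, 0.661 and 1.17 against 0.127, 0.136 and 0.0814, a 6.06-fold difference (log2 change 2.60 ± 0.48, FDR 0.000127, and 2.99 without slow/slow replicate 1), in which every slow/slow library was above every WT library. In neurons Rbfox1 was 46.3, 42.5 and 39.9 CPM in WT and 48.6, 49.6 and 49.3 CPM in slow/slow samples. All 3 slow/slow samples were above all 3 WT samples, yet the difference did not pass the test (0.20 ± 0.30, FDR 0.603), and it did pass when the neuron libraries were fitted alone (0.27, FDR 0.0011).

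Rbfox3, at chr11:118489762-118911597 on the minus strand, spans 422 kb. In neurons it was 40.1, 34.4 and 35.3 CPM in WT and 19.0, 21.2 and 18.9 CPM in slow/slow samples, without overlap, so that slow/slow neurons held 0.539 of the WT level (-0.89 ± 0.23, FDR 0.00338). In PSA-NCAM+ cells, at a level far below that of neurons, the direction was the opposite, with 0.289, 0.253 and 0.261 CPM in WT and 0.388, 0.544 and 1.06 CPM in slow/slow samples (1.33 ± 0.31, FDR 0.00121, and 1.58 without slow/slow replicate 1). When the PSA-NCAM+ libraries were fitted alone, this difference of Rbfox3 was not called (1.29, FDR 0.0757). NPCs were not detectably different, at 0.499, 0.619 and 0.675 CPM in WT and 0.530, 0.692 and 0.789 CPM in slow/slow samples (0.13, FDR 0.732). ESC libraries had 1 to 13 counts. Within neuron libraries the ratio of Rbfox3 to Rbfox1 counts was 0.866, 0.808 and 0.885 in WT and 0.391, 0.427 and 0.384 in slow/slow samples.

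Markers of cell types moved with some of these results. Of all genes, 18.5% were called higher and 21.9% lower in slow/slow ESCs, and 29.3% and 27.4% in NPCs. In PSA-NCAM+ cells the shares were 28.6% and 28.1%, and in neurons 23.4% and 28.4%. Without slow/slow PSA-NCAM+ replicate 1, 68.9% were called in either direction. A count of markers near these shares does not set a list apart. In slow/slow neurons 4 of 7 neuronal markers were called lower (Snap25, Stmn2, Syn1 and Syt1) and 0 higher, while Dcx, Map2 and Tubb3 were not called. Of 4 fibroblast or mesenchyme markers 3 were called higher there, and their summed level was 525 to 560 CPM against 224 to 277 CPM in WT neurons. Astrocyte markers went the other way in sum, 84.4 to 96.2 CPM against 166 to 204 CPM in WT neurons, with 3 of 4 called lower and 1 higher. Markers of the oligodendrocyte lineage summed to 20.5 to 24.3 CPM against 64.8 to 84.5 CPM, with 2 of 5 called lower and 2 higher. Of the other lists in neurons, 3 of 4 neural progenitor markers were called higher (1494 to 1743 CPM against 1145 to 1347 CPM), as were 3 of 5 muscle markers, with a summed level of at most 12 CPM in either genotype, while 4 of 5 endoderm markers were called higher and 1 lower, and 3 of 5 pluripotency markers higher and 1 lower. In slow/slow PSA-NCAM+ cells all 7 neuronal markers were called higher, with a summed level of 240 to 555 CPM against 78.2 to 116 CPM, in the group where 4 of the 5 splicing regulators were called higher, and both counts were the same without slow/slow replicate 1. All 4 neural progenitor markers were called higher at that stage too, and 3 of 5 pluripotency markers lower (4 without slow/slow replicate 1). Of the remaining lists there, 1 of 4 astrocyte markers was called higher and 1 lower, 2 of 5 oligodendrocyte markers higher, 1 of 5 endoderm markers lower, 1 of 5 muscle markers higher and 2 lower, and 2 of 4 fibroblast or mesenchyme markers higher and 1 lower. In slow/slow NPCs 6 of 7 neuronal markers were called higher (252 to 292 CPM in sum against 98.5 to 107 CPM in WT). So were all 4 neural progenitor markers. Of 5 pluripotency and 5 oligodendrocyte markers 4 each were called lower there, and 0 and 1 higher. In slow/slow ESCs 2 of 7 neuronal and 2 of 4 progenitor markers were called higher and 0 lower. For NCAM and its polysialyltransferases, 3 of 3 genes were called higher in slow/slow NPCs, and 1 higher and 1 lower in slow/slow ESCs. In slow/slow PSA-NCAM+ cells 2 of these 3 genes were called higher (3 without slow/slow replicate 1). In slow/slow neurons 2 of them were called lower. Other cell-type lists in ESCs and NPCs had at most 2 calls in either direction. The part of cell composition in these results was not tested. Gene length can also be set beside them. Among 530 tested genes spanning more than 300 kb, the median log2 change in neurons was -0.61 and 53.4% were called lower. Rbfox3 lay in the direction of that class and Rbfox1, the longest, did not. Among 1780 genes of 100 to 300 kb, which include Nova1 and Rbfox2, the median was -0.21 and 40.5% were called lower. Among 14002 genes under 100 kb, which include Nova2, the median was -0.03 and 26.2% were called lower. The part of gene length was not tested.

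The genotype change itself differed between stages in 13 of 30 combinations of gene and stage pair by the interaction test. Neurons differed from PSA-NCAM+ cells for all 5 genes, a contrast in which 53% of all genes were called. They differed from NPCs for 3 genes (Nova1, Nova2 and Rbfox3, beside 55.1% of all genes) and from ESCs for Rbfox3 alone (beside 42.1%). PSA-NCAM+ cells differed from ESCs for 3 genes (beside 27.1%), NPCs from ESCs for Nova1 (beside 24.6%), and PSA-NCAM+ cells from NPCs for 0 of the 5 (beside 14.6%). For that last pair all 5 unadjusted p-values of edgeR were under 0.05, from 0.0117 for Rbfox3 to 0.0343 for Rbfox2, and DESeq2 called 2 of the 5, Rbfox1 and Rbfox3. For Nova1 the change in neurons was lower than that in PSA-NCAM+ cells by 1.83 on the log2 scale (FDR 9.91e-06), while the change in neurons was not called different from that in ESCs. The number of combinations rose to 20 when slow/slow PSA-NCAM+ replicate 1 was left out.

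Inclusion of the genes' own exons was examined as PSI, the percentage of transcripts that contain an exon, estimated by the authors from reads over its junctions. An exon was called changed when mean PSI differed by more than 10 points with a posterior probability over 0.95, among exons that passed the coverage filters in all 6 samples compared. Of the 30 exons, 4 could be tested between genotypes in ESCs, 5 in NPCs, 6 in the PSA-NCAM+ stage and 21 in neurons, since most belong to genes that are barely expressed earlier. The calls numbered 2 for each of ESCs, NPCs and neurons and 1 for PSA-NCAM+ cells, all towards more inclusion in slow/slow cells. Calls of that direction made up 0.372% of all exons tested in ESCs and 0.801%, 0.238% and 1.99% at the 3 later stages. With both directions the shares were 0.809%, 2.93%, 0.966% and 3.55%.

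The 72-base exon of Nova1, printed above with its 5 Nova elements (mm9 chr12:47814485-47814556), had the largest difference between genotypes among the tested exons of the 5 genes. In WT neurons its PSI was 59.2%, 54.3% and 53.5%, and in slow/slow neurons 82.0%, 84.3% and 88.7%. The difference of means was 29.3 points, the lowest slow/slow value was over 20 points above the highest WT value, and 318 to 1995 reads lay behind each value. Transcripts with this exon thus formed a larger share of a smaller Nova1 pool in slow/slow neurons. At earlier stages the exon was included at or above 87.5% in every library of both genotypes, but from only 12 to 103 reads, and it did not pass the filters in all 6 samples of any of those stages. A 102-base exon of Nova1 was at 11.99%, 10.1% and 9.3% in WT and 17.7%, 14.2% and 16.5% in slow/slow neurons, a difference of 5.66 points that is under the threshold although the groups did not overlap.

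The 40-base exon of Rbfox2 (mm9 chr15:76924881-76924920) had a higher mean PSI in slow/slow cells at all 4 stages and was called at 3 of them. In ESCs its PSI was 79.4%, 77.0% and 79.4% in WT and 95.7%, 95.5% and 95.9% in slow/slow samples, a difference of 17.1 points. In NPCs it was 74.4%, 74.99% and 75.95% in WT and 96.6%, 96.4% and 95.8% in slow/slow samples, a difference of 21.1 points. No slow/slow sample fell within the WT range at either stage. In PSA-NCAM+ cells PSI was 63.4%, 68.6% and 67.1% in WT and 72.1%, 90.1% and 92.2% in slow/slow samples, where replicate 1 of slow/slow cells lay closer to the WT samples. The difference of 18.5 points had a posterior probability of 0.953, just past the threshold. It was not called without WT replicate 1 or without slow/slow replicate 2 or 3, with differences of 14.8 to 24.8 points over the samples left out, and was 24.8 points and called without slow/slow replicate 1. In neurons PSI was 86.3%, 83.9% and 84.0% in WT and 93.8%, 94.3% and 93.7% in slow/slow samples, a difference of 9.18 points that is under the threshold of 10 without overlap of the groups.

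The partner of this exon, the 43-base exon of Rbfox2 (mm9 chr15:76922242-76922284), ran the other way in PSA-NCAM+ cells. Its PSI there was 7.70%, 9.98% and 9.71% in WT and 4.65%, 2.39% and 1.47% in slow/slow samples, a difference of -6.29 points, or -7.20 points without slow/slow replicate 1, neither of them past 10 points. The exon could not be tested between genotypes in ESCs and NPCs, where not all samples passed the filters. Its mean PSI in these stages was 12.4% and 6.89% in WT and 3.13% and 1.38% in slow/slow samples, without overlap. In WT cells its PSI fell by 11.1 points from ESCs to neurons, from 13.8%, 12.7% and 10.8% to 1.21%, 1.32% and 1.39%. It was the only one of the genes' 5 tested exons called in that contrast, in which 5.31% of all exons were called. The same contrast in slow/slow cells had 0 calls among 4 tested exons (beside 3.89% of all exons). The 43-base exon was not among them, as it did not pass the score filters in slow/slow ESCs. Its mean PSI was 3.13% in slow/slow ESCs and 1.09% in slow/slow neurons, a fall of under 10 points. Limma on the reads with the same threshold of 10 points also gave 1 call in WT and 0 in slow/slow cells. In slow/slow cells the 40-base exon and a 225-base exon of Rbfox2 had unadjusted p under 0.05 by limma, with differences of -1.77 and 1.41 points. Their limma FDRs were 0.0844 and 0.0373. In WT cells the 40-base exon differed by 6.13 points (limma FDR 0.0200), also under the threshold of 10.

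A 51-base exon near the start of Rbfox2 (mm9 chr15:77061817-77061867) was also more included in slow/slow cells early on. In ESCs its PSI was 60.3%, 68.8% and 64.6% in WT and 79.2%, 84.8% and 81.6% in slow/slow samples, a difference of 17.3 points. In NPCs it was 69.4%, 66.0% and 68.7% in WT and 89.3%, 83.7% and 83.6% in slow/slow samples, a difference of 17.5 points. The genotypes did not overlap at either stage. In neurons they overlapped, with 67.0%, 79.7% and 74.8% in WT and 72%, 79.5% and 75.8% in slow/slow samples (1.93 points), and in PSA-NCAM+ cells the difference of 8.01 points was not called, nor that of 11.2 points without slow/slow replicate 1. By limma on the reads the ESC difference of this exon had an FDR of 0.0762.

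In Rbfox1 the 81-base exon (mm9 chr16:7330455-7330535) was at 75.7%, 71.1% and 78.4% in WT neurons and at 95.2%, 89.1% and 94.5% in slow/slow neurons. The groups did not overlap, and the difference of 17.9 points was called from 106 to 297 reads a sample. The 53-base exon tied to the location of the protein (mm9 chr16:7392081-7392133) was at 50.3%, 42.9% and 45.9% in WT and at 43.9%, 31.6% and 32.1% in slow/slow neurons. These ranges overlapped through slow/slow replicate 1, and the difference of -10.5 points was not called (posterior probability 0.878), whereas without that replicate it was -14.5 points and was called. The 40-base exon of Rbfox1 was at 93.6%, 100% and 95.2% in WT and 98.7%, 95.6% and 100% in slow/slow neurons, already near full inclusion in both genotypes, unlike its counterpart in Rbfox2.

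The 93-base exons of the RNA recognition motif were included almost fully. In Rbfox2 PSI was at least 97.5% in every library. In Rbfox1 it was 100%, 100% and 97.6% in WT and 97.0%, 99.2% and 96.8% in slow/slow neurons. In Rbfox3 it was 99.2%, 98.0% and 100% in WT and 98.1%, 96.1% and 84.8% in slow/slow neurons. The last difference, -6.05 points, came mostly from slow/slow replicate 3 and was not called. By the same rule, of the genes' 35 introns in the splicing table, 9, 10, 10 and 23 could be tested for retention in ESCs, NPCs, PSA-NCAM+ cells and neurons, and 0 were called, with differences between -2.10 and 2.22 points. Called introns were rare in all, at 0.0541%, 0.321%, 0.0838% and 0.26% of those tested.

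**Figure D3:**
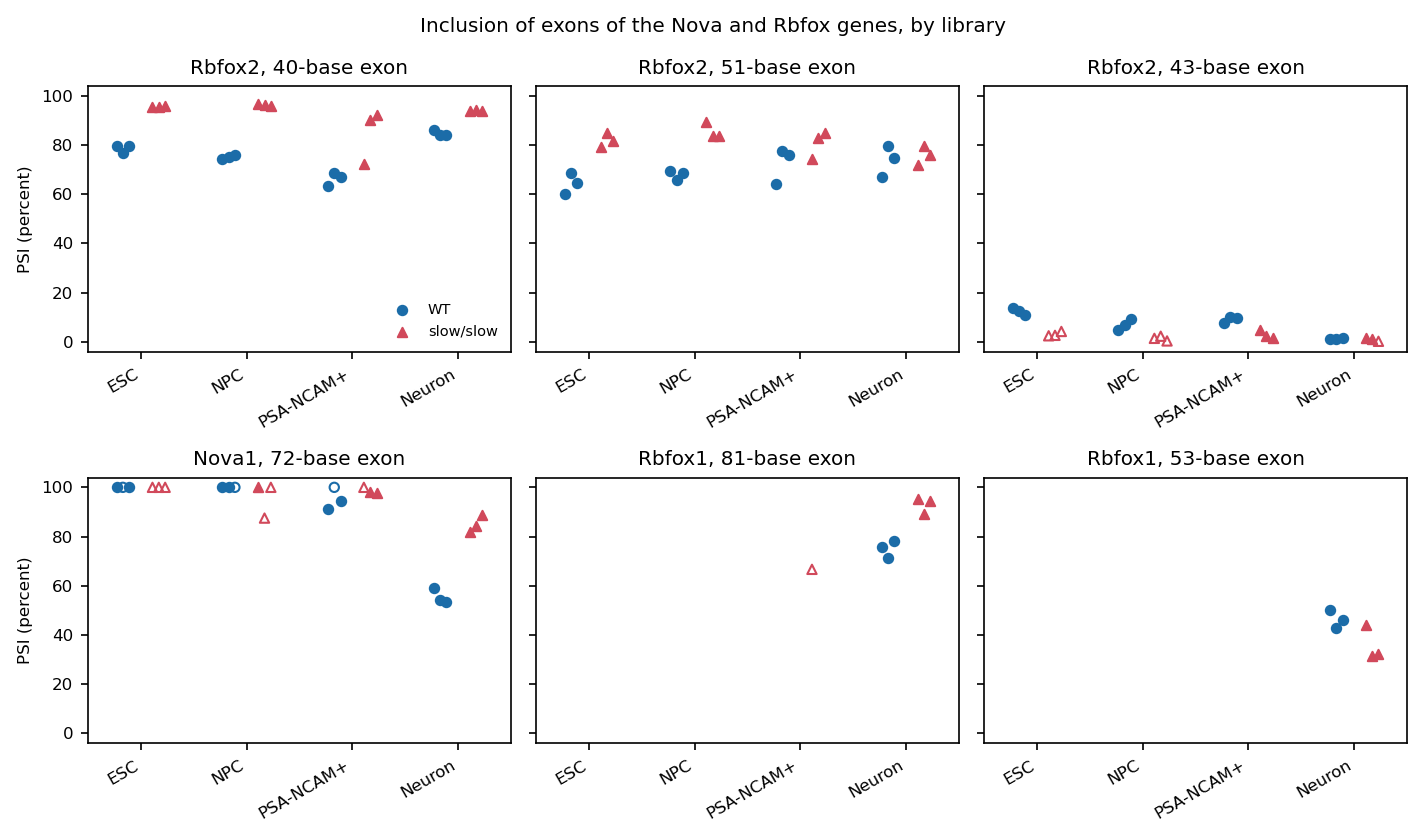
PSI, in percent, of selected exons of the 5 genes in each library with at least 10 reads over the junctions, by stage and genotype. Open symbols mark values that did not pass the coverage filters. The 72-base exon of Nova1 is at 53.5% to 59.2% in WT neurons and 82.0% to 88.7% in slow/slow neurons, and the 40-base exon of Rbfox2 is above 95% in slow/slow ESCs and NPCs.

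Other regulators of neural splicing were examined as well. Of 20 such genes outside the 2 families, 7 were called higher and 4 lower in slow/slow ESCs, 12 and 1 respectively in NPCs, 14 against 2 in PSA-NCAM+ cells, and in neurons 4 against 7. The called genes were thus 11, 13, 16 and 11 of the 20, beside 40.4%, 56.7%, 56.7% and 51.9% of all genes. Without slow/slow PSA-NCAM+ replicate 1 the counts at that stage were 15 higher and 2 lower, beside 68.9% of all genes called. The median log2 change of the 20 genes was 0.36, 0.59, 0.63 and -0.14 in the 4 stages, against -0.02, 0.01, -0.01 and -0.06 for all genes. The largest changes in neurons were those of Mbnl3, a muscleblind-like protein (4.09 ± 0.52 (SD, n = 3) to 14.8 ± 0.979 CPM, log2 1.86), of Celf4, a neuronal CELF protein (362 ± 18.3 to 132 ± 6.02 CPM, -1.46), and of Khdrbs2, which regulates neurexin exons (13.1 ± 0.616 to 5.56 ± 0.464 CPM, -1.24). Their FDRs by edgeR were 0.00398, 1.03e-08 and 0.00211. Of 8 genes for proteins of the large assembly of splicing regulators that binds Rbfox, 3, 7, 7 and 3 were called higher and 0, 0, 0 and 1 lower, with medians of 0.28, 0.47, 0.54 and 0.15, beside the same shares of all genes. In neurons these changes were small, at 0.34 for Hnrnph1, 0.27 for Hnrnpc and -0.24 for Hnrnpul2.

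**Figure D4:**
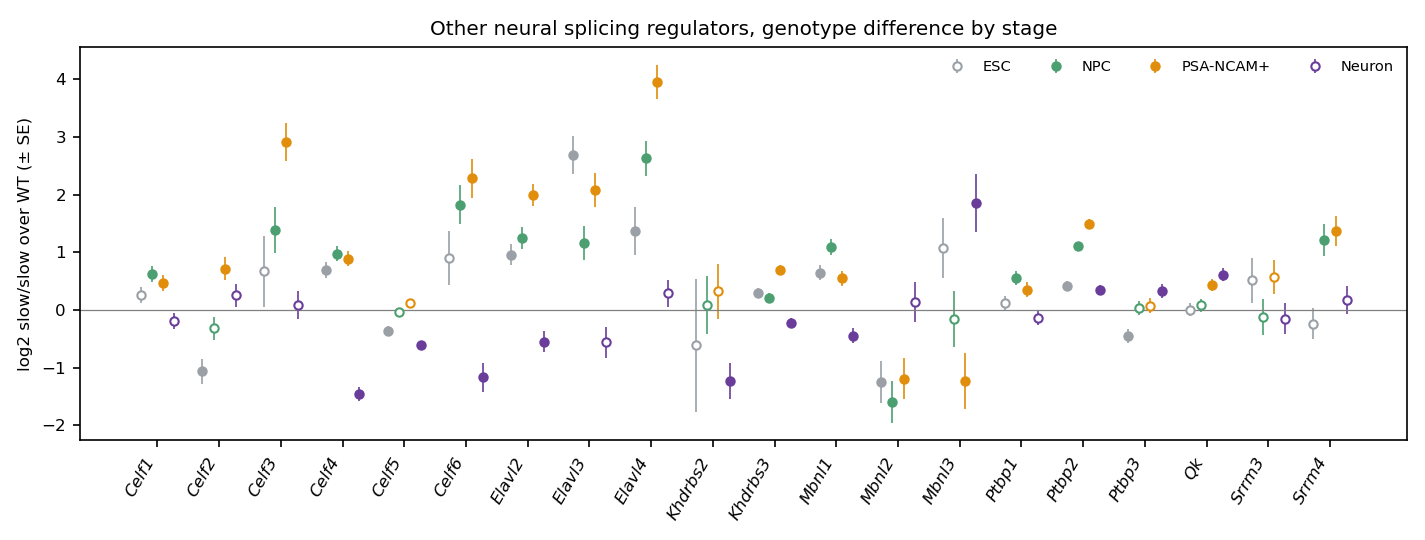
Log2 change of slow/slow over WT cells, with SE, of 20 other regulators of neural splicing at the 4 stages, from edgeR's quasi-likelihood test with 3 libraries a group. Filled symbols passed an FDR of 0.05. In PSA-NCAM+ cells 14 of the 20 genes were called higher, and in neurons 7 were called lower, Celf4 and Khdrbs2 among them.

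Genes known to carry Nova-regulated or Rbfox-regulated exons were examined in the same way. Of 12 Nova target genes, 2, 3, 6 and 1 were called higher in slow/slow ESCs, NPCs, PSA-NCAM+ cells and neurons, and 3, 4, 1 and 6 lower. The called Nova targets, 5, 7, 7 and 7 of 12, lay near the shares of all genes called in either direction (40.4%, 56.7%, 56.7% and 51.9%). Of 14 Rbfox target genes, 2, 2, 7 and 0 were called higher and 4, 6, 2 and 9 lower, 6, 8, 9 and 9 in all beside the same shares. Without slow/slow PSA-NCAM+ replicate 1, 9 Nova and 10 Rbfox target genes were called at that stage. These were 75% and 71.4% of the lists, near the 68.9% of all genes called in that setting. The median log2 change in neurons was -0.44 for the Nova and -0.55 for the Rbfox target genes. Among the Nova targets Kcnj6, a potassium channel, had 0.89 ± 0.21 CPM (SD, n = 3) in WT neurons, where slow/slow neurons had 0.12 ± 0.04 CPM (-2.85, edgeR FDR 4.67e-05), Glra2, a glycine receptor subunit, fell by 1.63 on the log2 scale and Epb4.1, a membrane skeleton protein, rose by 0.88. Among the Rbfox targets Grin1, the obligatory NMDA receptor subunit, changed from 79.8 ± 6.52 to 20.8 ± 0.58 CPM (-1.94, edgeR FDR 2.32e-07), and Vamp1 and Camta1 fell by 1.58 and 1.49.

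Exons of these target genes were also counted, and several of them lie in the same gene. In neurons 12 of 69 tested exons of the Nova target genes (17.4%) and 14 of 88 of the Rbfox target genes (15.9%) were called, beside 3.55% of all exons. The target genes were chosen because they carry regulated exons, and with earlier results of these data known. Their shares and that of all exons therefore do not compare like with like. The 12 came from 6 genes (Agrn, Clasp1, Gphn, Map4, Neo1 and Ptprf), 7 of them more and 5 less included in slow/slow neurons. The 14 came from 9 genes, 4 more and 10 less included, and each has a length that is a multiple of 3. So have 10 of the 12 exons of the Nova target genes. The share of such lengths among all called exons was not counted, so these counts do not set either list apart. Of all 863 exons called in neurons, 484 were more and 379 less included. At the earlier stages the counts were 0 of 45, 3 of 45 and 0 of 57 for the Nova target genes and 1 of 43, 5 of 46 and 0 of 52 for the Rbfox target genes. The tables do not say which of these exons Nova or Rbfox bind.

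Of the target exons singled out by length, the 21-base exon of Mef2d, a muscle and neuron transcription factor, stood at 85.1%, 73.8% and 76.5% in WT neurons and 51.5%, 41.8% and 46.6% in slow/slow neurons. It was thus less included in every slow/slow sample, by 31.8 points. The 63-base exon of Enah, an actin regulator, was at 24.4%, 24.95% and 28.0% in WT NPCs and 11.3%, 12.9% and 11.8% in slow/slow NPCs, a difference of -13.8 points that was called, while neurons of the 2 genotypes differed by -3.09 points, under the threshold of 10 but without overlap (limma FDR 0.0384). The 33-base exon of Agrn was at 29.6% to 38.2% in WT and 33.4% to 34.4% in slow/slow neurons, overlapping values whose difference of 1.27 points was under the threshold. The 24-base exon of Agrn did not pass the filters in all 6 neuron samples. Across the called exons the largest difference was that of a 95-base exon of Neo1, the netrin receptor neogenin, at 34.9% ± 4.66 in WT and 75.4% ± 2.77 in slow/slow neurons (SD, n = 3). A 117-base exon of Clasp1, which binds microtubule ends, went from 41.3% ± 2.66 to 11.2% ± 0.715.

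**Figure D5:**
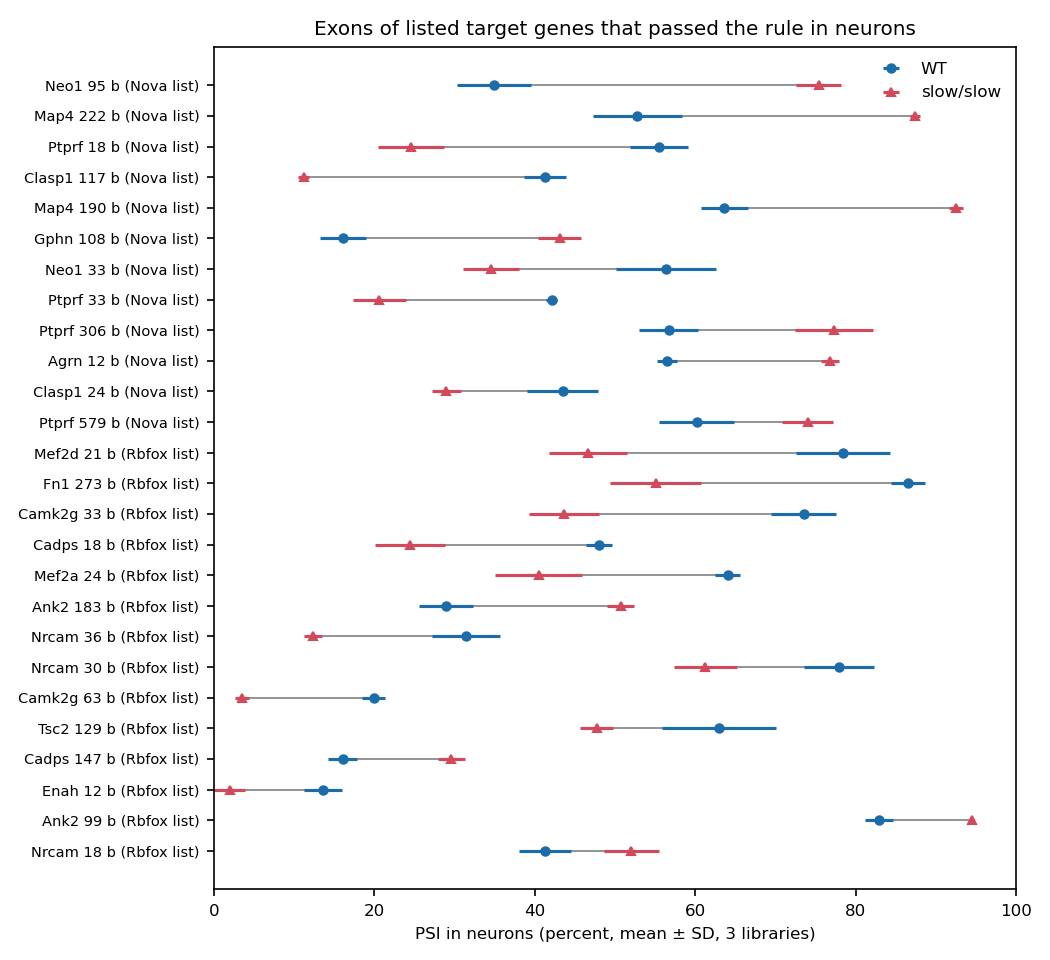
Mean PSI ± SD (n = 3), in percent, in WT and slow/slow neurons of the 26 exons called changed in the Nova and Rbfox target genes. Each exon is named by gene and length in bases. Of the 14 exons of Rbfox target genes 10 move down, such as the 21-base exon of Mef2d from 78.5% to 46.6%. Of the 12 exons of Nova target genes 7 move up, a split near that of all called exons. Of all 863 exons called in neurons, 484 move up and 379 down.

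Across the 24 libraries the profiles of the 5 genes resembled each other, with Pearson r of log2(CPM + 1) from 0.885 (Nova2 and Rbfox2) to 0.988 (Nova1 and Rbfox3). Such values are set mainly by the rise in neurons, which many genes share. The 3 genes most like Nova1 were Slc12a5 (r = 0.994), Unc79 (0.993) and Ptpn5 (0.992). Those most like Nova2 were Sbk1 (0.994), Tagln3 (0.988) and Rgma (0.987). For Rbfox1 they were Kcnk10 (0.999), Slc17a6 (0.999) and Lmo3 (0.998), for Rbfox2 Mdga1 (0.990), Trim35 (0.982) and Oscp1 (0.981), and for Rbfox3 Fam123c (0.997), Iqsec3 (0.997) and Pak7 (0.996). With the 8 group means in place of 24 libraries, 5 of these 15 genes were chosen again, so the order among the closest profiles is not firm.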

How the data were processed

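Per the study's methods, the authors sequenced poly(A)-selected libraries from both ends, mapped reads to mm9 and processed them with vast-tools. The submitters' processing notes name bcl2fastq 2.17.1.14 and edgeR. The deposited expression table holds raw read counts per gene and sample, which the authors did not normalise, and RPKM values that are the authors' means over replicates. Its log2 fold changes and FDR values are the authors' own comparisons and were not used. Whether counting used strand was not given in the sources used here. No annotated coding gene overlaps the 5 genes. The deposited splicing table gives PSI as a percent per event and sample with quality scores. A table of pooled PSI values was not used. 0 columns of per-sample values were left out for want of a sample.

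Counts were tested in edgeR 4.0.16 (R 4.3.3) with filterByExpr by group, TMM scaling and the quasi-likelihood F test in 1 model of 8 groups over 24 samples with 16 residual degrees of freedom. The common biological coefficient of variation was 0.164. Of 22667 genes, 21553 had counts and 16627 were tested, with Benjamini-Hochberg adjustment over all of them. Contrasts were slow/slow against WT at each stage, pairs of stages within a genotype, and their interactions. SEs were derived from the F statistic.

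Exons passed with coverage scores SOK, OK or LOW and, where given, balance scores OK or B1, in all 6 samples. Introns needed 15 reads and a balance p-value of at least 0.05. Beta posteriors of the replicates' reads were pooled as in the vast-tools diff module, and its probability threshold was read as 0.95. Limma 3.58.1 on the empirical logit (0.5 added) and DESeq2 1.42.0 were alternatives, as were other scalings, no filter, fits of 1 stage, leaving out each replicate, and the replicate block. Statistics were tested on simulated data. PSI coordinates are mm9 and gene and sequence coordinates GRCm38, joined only by gene, exon length and the lengths of both flanking introns.

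The members and lists were chosen with earlier results of these data known. Named are all 5 genes, the 3 genes most like each by Pearson r of log2(CPM + 1), up to 3 genes of each list with the largest called change in neurons, exons called in any comparison, and exons found by length.

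The replicate number pairs the samples only in PSA-NCAM+ cells, where the deviations of same-numbered libraries correlated at 0.59, 0.59 and 0.46. In the other stages these correlations ranged from -0.26 to 0.40.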

Additional observations from a re-analysis of the deposited data

Results flagged for a closer look

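The genotype change differed between stages, by edgeR's interaction test, in 13 combinations of gene and stage pair, given here as the change at the later stage minus that at the earlier one. For neurons minus PSA-NCAM+ cells the differences were -1.83 for Nova1 (FDR 9.91e-06), -1.55 for Nova2 (FDR 0.000204), -2.40 for Rbfox1 (FDR 0.00152), -0.34 for Rbfox2 (FDR 0.0313) and -2.23 for Rbfox3 (FDR 8.21e-05). For neurons minus NPCs they were -1.10 for Nova1 (FDR 0.00168), -0.77 for Nova2 (FDR 0.0342) and -1.02 for Rbfox3 (FDR 0.0285). For PSA-NCAM+ cells minus ESCs they were 1.54 for Nova1 (FDR 0.000338), 1.55 for Nova2 (FDR 0.000655) and 4.84 for Rbfox1 (FDR 0.00689). The last value depends on how near-zero counts are handled, since slow/slow ESC libraries had at most 2 counts of Rbfox1. Nova1 differed by 0.82 between NPCs and ESCs (FDR 0.0397), and Rbfox3 by -1.72 between neurons and ESCs (FDR 0.0155), where ESC libraries had 1 to 13 counts of Rbfox3.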

How the results depend on the processing

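Counts of calls stayed within 1.5 times the reported count in 63 of 69 alternatives other than leaving out a library. Fitting only the libraries of a stage gave 2 called genes in PSA-NCAM+ cells (4 reported), with Nova1 (FDR 0.285) and Rbfox3 (FDR 0.0757) lost, and 5 in neurons (3 reported), with Nova2 gained at 0.13 (FDR 0.0146) and Rbfox1 at 0.27 (FDR 0.0011). Limma gave 1 called exon in ESCs (2 reported) and 0 in PSA-NCAM+ cells (1 reported), where the 40-base exon of Rbfox2 had an FDR of 0.416. A threshold of 15 points left 0 exons from ESCs to neurons in WT cells (1 reported). Upper-quartile scaling, which moved the median of all genes in neurons by 0.140, ended 3 interaction calls between neurons and an earlier stage (Nova2 -0.58 and Rbfox3 -0.84 against NPCs, Rbfox2 -0.13 against PSA-NCAM+ cells).

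With the replicate block no genotype call of the 5 genes changed, and the calls over all genes went from 6720 to 6909 in ESCs, 9423 to 9666 in NPCs, 9424 to 9630 in PSA-NCAM+ cells and 8626 to 8867 in neurons. In edgeR this block gave each replicate number a single effect shared by all stages. It therefore does not test a pairing found only in PSA-NCAM+ cells. Limma with the replicate block gave 0 exons in PSA-NCAM+ cells, the 40-base exon of Rbfox2 having an FDR of 0.126, and called the 51-base exon in ESCs (FDR 0.0247).

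Leaving out 1 library gave 10 to 20 interaction calls (20 without slow/slow PSA-NCAM+ replicate 1), 0 to 1 exons in PSA-NCAM+ cells, and 1 to 2 exons from ESCs to neurons in WT cells (2 without WT neuron replicate 1 or WT ESC replicate 2). Small differences changed sign: Nova2 in ESCs (-0.0055 to 0.0900), Rbfox1 in NPCs (-0.11 to 1.10), Rbfox2 in PSA-NCAM+ cells (-0.26 to 0.0096), and in points of PSI the 93-base exon of Rbfox2 in PSA-NCAM+ cells (-0.295 to 0.828) and from slow/slow ESCs to neurons (-0.223 to 0.580), the 33-base exon of Agrn (-0.260 to 4.05), the 51-base exon of Rbfox2 in neurons (-1.50 to 4.87) and the 63-base exon of Enah from WT ESCs to neurons (-0.943 to 0.342). None of these was called in the reported fits, and Rbfox2 in PSA-NCAM+ cells was called lower without WT replicate 1 (FDR 0.000768). The cause of these changes was not tested. Read depth limits the exons of Rbfox1, Rbfox3 and Nova1 before neurons, and intervals on counts cover counting error only.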
